A study of Mus musculus with 12 samples.

Results

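Pdk4 encodes pyruvate dehydrogenase kinase 4, and its RNA was followed in the left ventricles (LVs) of 12 mice, 1 mouse per array, in 4 groups of 3. The gene was represented by 1 probe, ASMM10P032808 with the RefSeq transcript NM_013743, out of 60819 probes analysed, of which 907 could be given a gene name. Pdk4 RNA was lowest in MI miR-150 fl/fl hearts, at a mean log2 signal of 5.0 ± 0.16 (SD, n = 3). The means of the other groups lay between 5.81 and 6.30, and MI miR-150 cKO hearts, at 6.08 ± 0.093 (SD, n = 3), were near the sham hearts. Log2 signal here is the log2 of the array intensity minus the 75th percentile of that array, so a difference of 1 is a doubling of the intensity.

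All mice were of the C57BL/6J strain and carried floxed miR-150 alleles (miR-150 fl/fl). The miR-150 cKO mice also carried a Cre recombinase under the alpha-MHC promoter, which is active in cardiomyocytes, so that the deletion was aimed at this cell type alone. No group carried the Cre without the floxed alleles, and an effect of the Cre itself cannot be told apart from that of the deletion. Mice of both genotypes underwent either ligation of the left anterior descending coronary artery, which causes a myocardial infarction (MI), or a sham operation without the ligation, and LVs were taken 4 weeks later at an age of 13 to 15 weeks. Each group held 1 male and 2 females. No probe was named for miR-150 or its precursor, so that the deletion itself was not checked here.

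The pyruvate dehydrogenase complex turns pyruvate, the end product of glycolysis, into acetyl-CoA inside mitochondria and so commits glucose carbon to oxidation. PDK4 phosphorylates this complex and switches it off, while pyruvate dehydrogenase phosphatases switch it on again, and a heart with much PDK4 leans on fatty acids as its fuel. Pdk4 is known as a gene that fasting, fatty acids acting through PPAR receptors, FoxO factors and glucocorticoids raise and that insulin lowers. Whether the mice were fed or fasted at harvest was not given in the sources used here.

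The files listed probe identifiers without gene names. Names came from the study's own table of changed genes, used only as a key. Pdk4 was chosen by its place in that table, where its signal was the higher one in MI miR-150 cKO hearts when set against MI miR-150 fl/fl hearts. Its difference between these groups, and each difference that used either of them, is therefore a description with no test. The sham comparison and the comparison of the sexes were not those that named the probe, and both were tested. The sham comparison used none of the arrays that named Pdk4, but its limma test took the spread from all groups. The comparison of the sexes used the MI arrays too, so that its test was not free of the naming. A second consequence is that other genes had a name only if they had changed in 1 of the study's comparisons, apart from 15 housekeeping probes.

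The sequence just upstream of the transcription start is shown because it is the stretch of the gene where control of its RNA begins. In GRCm38.p6 it is chr6:5496279-5496528 on the minus strand, printed 5' to 3' from RefSeq, and it ends at the base before the start. Capitals mark a CCAAT box, which lies 131 bases before the start and is read on the opposite strand as ATTGG.
Pdk4 upstream region: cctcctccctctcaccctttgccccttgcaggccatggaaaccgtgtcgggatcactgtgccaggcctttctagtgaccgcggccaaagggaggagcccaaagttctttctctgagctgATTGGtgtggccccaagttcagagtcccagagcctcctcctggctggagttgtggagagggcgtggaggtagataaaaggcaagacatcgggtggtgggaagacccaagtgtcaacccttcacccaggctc
The CCAAT box was found in 33.8% of 32851 mouse promoter windows of the same length searched on both strands. The window held 0 matches to the nuclear receptor half-site AGGTCA, the FoxO core GTAAACA, the E-box CACGTG, the TATA box TATAAA and the GC box GGGCGG. These letters were present in 14.0%, 3.17%, 6.02%, 12.4% and 32.7% of the windows, respectively. The absence of a match says nothing of elements farther from the start.

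The array positions and scan times placed the 12 arrays on 2 slides: MI miR-150 fl/fl replicate 3 shared the first with the 3 hearts of the MI miR-150 cKO group, and the other 8 were on the second. Between 74.0% and 90.3% of the probes of an array were well above background. The sham miR-150 cKO group held both extremes, with 90.3% in replicate 1 and 74.0% in replicate 2. Correlations between arrays over all probes were from 0.969 to 0.992. A sham miR-150 fl/fl heart, replicate 1, stood apart from its group in Pdk4, and values are given below with and without it.

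In sham miR-150 fl/fl hearts, the Pdk4 log2 signal was 7.01, 5.94 and 5.94 in replicates 1, 2 and 3, from intensities of 56805, 20182 and 22957. Replicate 1, the male of the group, had the highest value of all 12 hearts, and the females were nearly equal. The group mean was 6.30 ± 0.62 (SD, n = 3), and without replicate 1 it was 5.94 ± 0.0057 (SD, n = 2).

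In sham miR-150 cKO hearts, the Pdk4 log2 signal was 5.46, 6.08 and 5.88, from intensities of 19284, 23610 and 19983. The mean was 5.81 ± 0.31 (SD, n = 3), and the values spanned those of the sham miR-150 fl/fl females. Replicate 1 was the lowest heart outside the MI miR-150 fl/fl group.

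In MI miR-150 fl/fl hearts, the Pdk4 log2 signal was 4.88, 5.18 and 4.93, from intensities of 10818, 14289 and 11330. These were the 3 lowest values of the series, on both slides, and they did not overlap any other group. The gap between the highest of them and the lowest of the other 9 arrays was 0.28.

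In MI miR-150 cKO hearts, the Pdk4 log2 signal was 6.05, 6.19 and 6.01, from intensities of 31180, 34073 and 26882. All 3 lay within the range of the sham hearts. The plot of Pdk4 by group shows this order, in which the sham miR-150 fl/fl, MI miR-150 cKO and sham miR-150 cKO groups overlapped one another and the MI miR-150 fl/fl group lay below them.

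**Figure D1:**
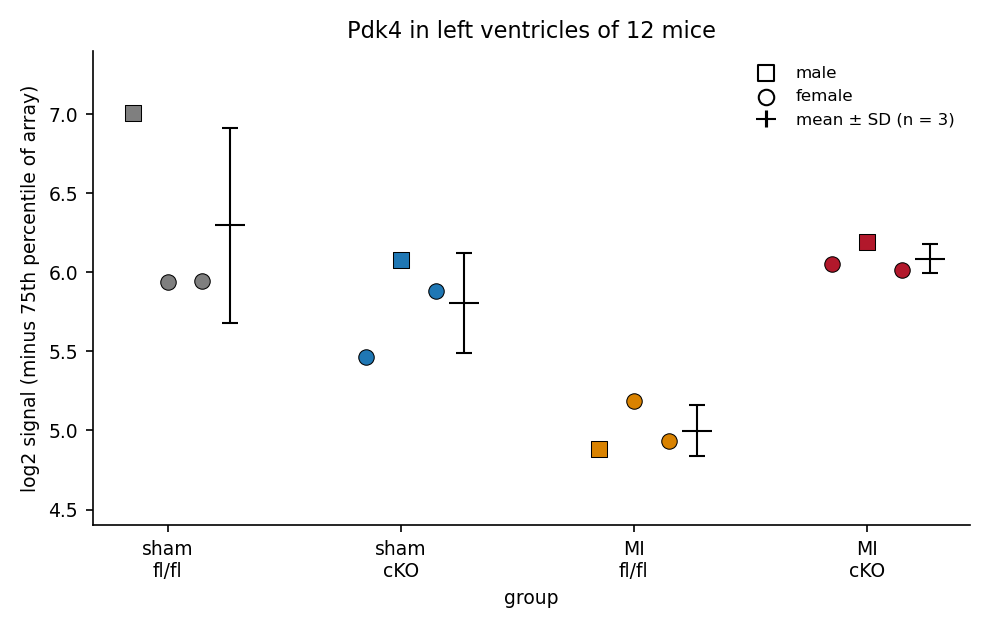
Pdk4 log2 signal, the log2 intensity minus the 75th percentile of the array, on the vertical axis in each of the 4 groups on the horizontal axis, with squares for males, circles for females and a bar for the mean ± SD of 3 hearts. The MI miR-150 fl/fl hearts lie between 4.88 and 5.18 below all others, and sham miR-150 fl/fl replicate 1 lies at 7.01 above all others.

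Pdk4 was well above background on all 12 arrays and saturated on none. Over the 12 hearts its mean was 5.80, its median 5.94 and its SD 0.60. After the group means were taken out, the residual SD of Pdk4 was 0.36, against a median of 0.19 over the 54225 probes tested, and 81.4% of these probes varied less within groups than Pdk4 did. Much of this spread came from replicate 1 of sham miR-150 fl/fl, without which the SD of that group fell from 0.62 to 0.0057. The SE of the Pdk4 difference between the MI genotypes then fell from 0.27 to 0.15. The residual SD and its rank were not computed without that heart. In LV tissue, fewer cells of a type and less RNA per cell cannot be told apart.

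The comparison of the genotypes after sham surgery asked what the deletion did without injury. The mean Pdk4 log2 signal was 0.49 lower in sham miR-150 cKO (difference -0.49, SE 0.27, 1.40-fold), with a 95% CI from -1.08 to 0.10. The groups overlapped, and the difference was within the spread of the replicates (limma p = 0.0936, adjusted p = 0.594; exact permutation test, two-sided, p = 0.4, where 3 against 3 cannot go below 0.1). The SE, CI and limma p used a spread pooled over all groups, including the MI groups that named the probe. The SE of this difference was 0.33 when only the sham groups were fitted and 0.40 in the unpaired test. Leaving out replicate 1 of the sham miR-150 fl/fl hearts made the Pdk4 difference -0.13. In this comparison 0 of 54225 probes (0.0%) passed an adjusted p of 0.05 in limma, and 4977 had an unadjusted p under 0.05.

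The comparison of MI with sham surgery in miR-150 fl/fl mice described the response to infarction with miR-150 in place. Mean Pdk4 was 1.30 lower after MI (difference -1.30, SE 0.27, 2.46-fold), and the groups did not overlap. The difference was -0.94 when replicate 1 of the sham hearts was left out and -1.26 among the 5 arrays on the second slide. On that slide the MI arrays were in the second row and the sham arrays in the first. Row and surgery therefore cannot be told apart in the value from that slide. In miR-150 cKO mice the same comparison gave a Pdk4 difference of 0.28 (SE 0.27, 1.21-fold higher after MI) with overlapping groups. There all MI arrays were on the first slide and all sham arrays on the second, so that slide and surgery cannot be told apart in the miR-150 cKO mice.

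The comparison that named the probe, that of the genotypes after MI, gave a mean Pdk4 difference of 1.09 (SE 0.27, 2.12-fold higher in MI miR-150 cKO), with no overlap. On the first slide alone, 3 MI miR-150 cKO hearts lay 1.15 above the 1 MI miR-150 fl/fl heart. The change with MI was 1.57 higher in miR-150 cKO than in miR-150 fl/fl mice (SE 0.38), which is the interaction of genotype and surgery. These values are descriptions. The MI and genotype comparisons in this paragraph and the one before share the MI miR-150 fl/fl, MI miR-150 cKO or sham arrays with each other.

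Having all 3 MI miR-150 fl/fl arrays below the other 9 was uncommon among all probes tested, at 671 of 54225 (1.24%), and 57 of the 907 named probes (6.28%) did so, which were named for a change. The opposite order, with these 3 arrays above the other 9, was seen in 288 probes (0.531%).

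Sex was balanced over the groups. In sham miR-150 fl/fl the male had a Pdk4 log2 signal of 7.01 and the females 5.94 and 5.94. In sham miR-150 cKO the male had 6.08 against 5.46 and 5.88, and in MI miR-150 cKO 6.19 against 6.01 and 6.05. In MI miR-150 fl/fl the male had 4.88, below the females at 4.93 and 5.18. Pdk4 was thus above both females in the males of 3 of 4 groups, with a mean difference, male minus female, of 0.36 (SE 0.17, 95% CI from -0.02 to 0.74). This did not pass the test (limma adjusted p = 0.66), and it was 0.13 when the sham miR-150 fl/fl male was left out with its value of 7.01.

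**Figure D2:**
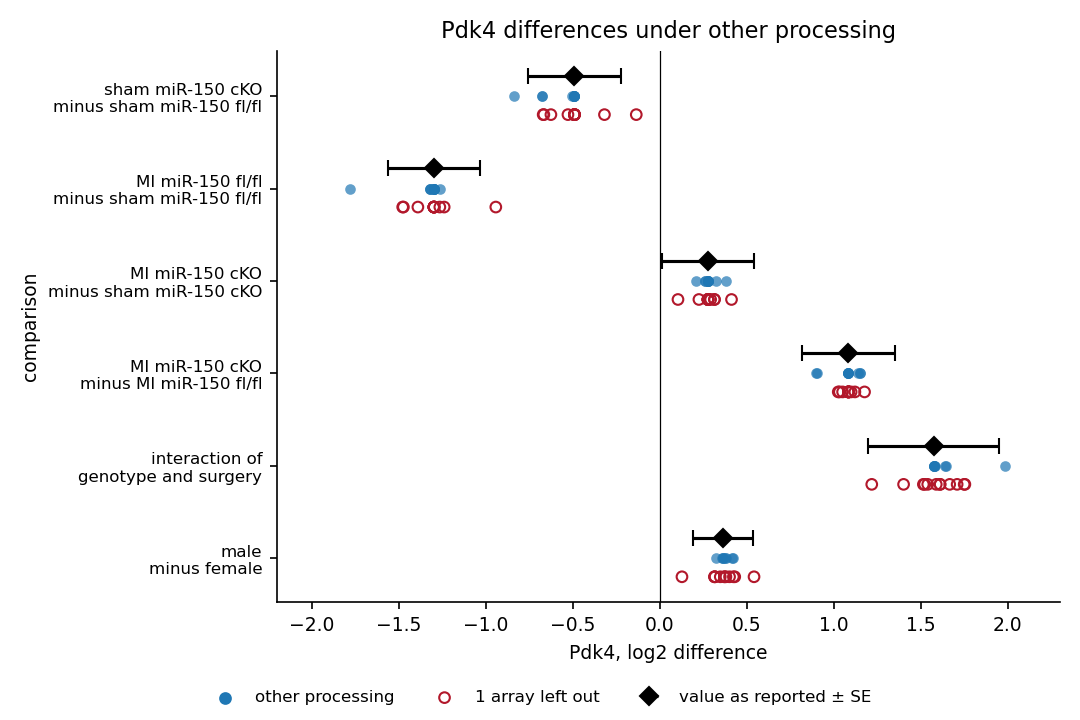
Pdk4 log2 difference on the horizontal axis for each comparison on the vertical axis: the value as reported with its SE (diamonds), under other ways of processing the arrays (filled circles) and with 1 array left out (open circles). No comparison changes sign, the MI miR-150 fl/fl difference runs from -1.78 to -0.94, and the MI genotype difference runs from 0.90 to 1.18.

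The genes of fuel use around Pdk4 were taken from 9 lists with 165 current symbols besides Pdk4, and 15 of these had a named probe. For these genes, past the limits means a fold of at least 1.5 and an unadjusted limma p under 0.05. Pdk1, Pdk2 and Pdk3, which encode the other kinases of the complex, had no named probe, nor had any gene of ketone or branched-chain amino acid use or of the circadian clock and glucocorticoid response.

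Between the MI genotypes, 5 of the 15 genes were past the limits and higher with the deletion, where 3.45% of all probes were, and 3 were past the limits and lower, where 1.31% were. Of the 15, 11 were named through this comparison, so nothing is read from these counts. Their median log2 difference was 0.09, against 0.00 over all probes tested. In MI against sham, miR-150 fl/fl mice had 1 gene higher, Pik3cb (background 0.882%), and 2 lower, Esrrb and Ucp3 (background 0.365%), and all 3 were named through this comparison, so nothing is read from these counts either. In miR-150 cKO mice 0 of 15 were past the limits in either direction (background 4.6% higher and 1.75% lower), but Hk1 was past them under 5 of 23 alternatives, Ech1 under 2 of 23, Pik3r1 under 2 of 22 and Txnip under 1 of 23. Between the sham genotypes, 0 genes were higher (background 0.636%) and 1, Pik3r1, was lower (background 2.12%), with a median difference of -0.13 against -0.03 over all probes. There Ucp3 was past the limits under 6 and Pdp2 under 4 of 23 alternatives, and Pik3r1 was no longer past them under 3 of 22.

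Pdp2 encodes a phosphatase that acts against PDK4 on the pyruvate dehydrogenase complex. Its log2 signal was 3.66, 3.69 and 3.48 in sham miR-150 fl/fl, 2.93, 3.40 and 2.99 in sham miR-150 cKO, 3.38, 2.86 and 3.52 in MI miR-150 fl/fl, and 3.36, 3.37 and 3.27 in MI miR-150 cKO hearts. The sham miR-150 cKO hearts lay below the sham miR-150 fl/fl hearts without overlap, at a difference of -0.50 (SE 0.18) through which the probe was named, and the MI groups overlapped each other. The Pdp2 difference between the MI groups was 0.08 (SE 0.18), where that of Pdk4 was 1.09.

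Foxo3 encodes a FoxO transcription factor that raises Pdk4 in fasting. Its log2 signal was 0.38, -0.16 and -0.07 in sham miR-150 fl/fl, 0.04, 0.39 and 0.16 in sham miR-150 cKO, -0.16, -0.41 and -0.27 in MI miR-150 fl/fl, and 0.42, 0.45 and 0.08 in MI miR-150 cKO hearts. The MI miR-150 fl/fl hearts were low, as for Pdk4, but overlapped the sham miR-150 fl/fl hearts. Foxo3 was 0.60 higher in MI miR-150 cKO than in MI miR-150 fl/fl (SE 0.16), the comparison through which it was named, and its difference between MI and sham in miR-150 fl/fl mice was -0.33 (SE 0.16). In the sham comparison, which had no part in its naming, the Foxo3 difference was 0.15 (SE 0.16, limma adjusted p = 0.758).

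Esrrb encodes an estrogen-related receptor, a relative of the receptors that drive mitochondrial genes. It was well above background on 9 of 12 arrays, with sham means of -3.89 ± 0.26 for miR-150 fl/fl and -3.46 ± 0.52 for miR-150 cKO, and MI means of -4.69 ± 0.52 for miR-150 fl/fl and -3.71 ± 0.26 for miR-150 cKO hearts (SD, n = 3 each). Its 3 MI miR-150 fl/fl hearts lay below those of sham miR-150 fl/fl and of MI miR-150 cKO without overlap, and both comparisons had named the probe. Only 1 of the 3 MI miR-150 fl/fl arrays was well above background for Esrrb, and normexp background correction brought the MI minus sham difference in miR-150 fl/fl mice from -0.80 to -0.08 and that between the MI genotypes from 0.98 to 0.05.

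Insulin signals through PI3-kinase to keep FoxO factors out of the nucleus. Pik3cb, a catalytic subunit of this kinase, was named for high values in MI miR-150 fl/fl hearts against both other groups compared with them, which fixed an order opposite to that of Pdk4. Its log2 signal was -1.29, -0.80 and -1.19 in MI miR-150 fl/fl and -1.92, -1.78 and -1.62 in MI miR-150 cKO hearts. In the sham hearts Pik3cb was -1.96, -1.56 and -1.62 with fl/fl and -1.41, -1.48 and -1.72 with cKO, so that the highest values were in MI miR-150 fl/fl hearts. Pik3r1, a regulatory subunit, was well above background on all 3 sham miR-150 fl/fl arrays but on 1 of 3 sham miR-150 cKO and 0 of 3 MI miR-150 fl/fl arrays. Its fitted difference between the sham genotypes, cKO minus fl/fl, was -1.33 (limma adjusted p = 0.509), against a group measured mostly near background and over sham miR-150 fl/fl arrays that also took part in its naming. Normexp background correction brought this Pik3r1 difference to -0.14.

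Txnip, Ucp2 and Ucp3 are, like Pdk4, genes that respond to fuel supply. Txnip, which restrains glucose uptake, was 2.16, 1.14 and 1.08 in sham miR-150 fl/fl, 1.20, 0.84 and 1.58 in sham miR-150 cKO, 1.24, 1.11 and 0.58 in MI miR-150 fl/fl, and 2.03, 1.81 and 1.53 in MI miR-150 cKO hearts. The highest Txnip value was in the same heart that was highest in Pdk4, sham miR-150 fl/fl replicate 1. Txnip was 0.81 higher in MI miR-150 cKO than in MI miR-150 fl/fl (SE 0.31), the comparison that named it, and its difference between the sham genotypes, cKO minus fl/fl, was -0.25 (SE 0.31, limma adjusted p = 0.776).

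Ucp3, which encodes an uncoupling protein of muscle mitochondria and is a PPAR target, was 3.74, 3.41 and 3.36 in sham miR-150 fl/fl hearts. It was 2.64, 3.23 and 3.01 in sham miR-150 cKO, 2.76, 2.74 and 2.56 in MI miR-150 fl/fl, and 3.17, 2.73 and 2.90 in MI miR-150 cKO hearts. The sham miR-150 fl/fl hearts were the highest, and unlike Pdk4 the MI groups overlapped, with a difference of 0.24 (SE 0.17). MI against sham in miR-150 fl/fl gave a Ucp3 difference of -0.82 (SE 0.17), which named it, beside -1.30 for Pdk4.

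Ucp2, the more widely expressed uncoupling protein, was 0.70 higher in MI miR-150 cKO than in MI miR-150 fl/fl hearts (SE 0.17) without overlap and had little difference with MI in miR-150 fl/fl mice, at -0.08 (SE 0.17). The enzymes of fatty acid oxidation that were named, Acadvl, Ech1 and Eci1, were named for lower values in MI miR-150 cKO than in MI miR-150 fl/fl hearts, so that their direction between the MI groups was fixed by the naming, as the higher values of Ucp2 were. Acadvl, the first dehydrogenase for very long chains, was -0.41 (SE 0.23) in MI miR-150 cKO against MI miR-150 fl/fl, while Ech1 and Eci1, isomerases for unsaturated fatty acids, were -0.51 (SE 0.16) and -0.57 (SE 0.09). None of these 3 reached the fold limit in any of the 4 comparisons on this scale, but between the MI genotypes Ech1 was -0.63 and Eci1 -0.74 with quantile normalization, both past the limits.

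In glycolysis, the hexokinases differed from each other between the MI groups: Hk1 was 0.65 higher in MI miR-150 cKO (SE 0.16) and Hk2, the insulin-responsive form, -0.63 (SE 0.28), both without overlap. Gapdh, a glycolytic enzyme used as a housekeeping gene, had a difference of 0.39 (SE 0.16), also without overlap, and was not past the limits. Dlst, a subunit of the 2-oxoglutarate dehydrogenase complex of the tricarboxylic acid cycle, was -0.82 (SE 0.15), with 4.11, 4.34 and 3.90 in MI miR-150 fl/fl and 3.43, 3.34 and 3.12 in MI miR-150 cKO hearts. Of these, Hk1, Hk2 and Dlst were named through this comparison. For the 10 fuel genes whose naming used no sham array, the limma adjusted p between the sham genotypes was from 0.513 to 0.968.

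**Figure D3:**
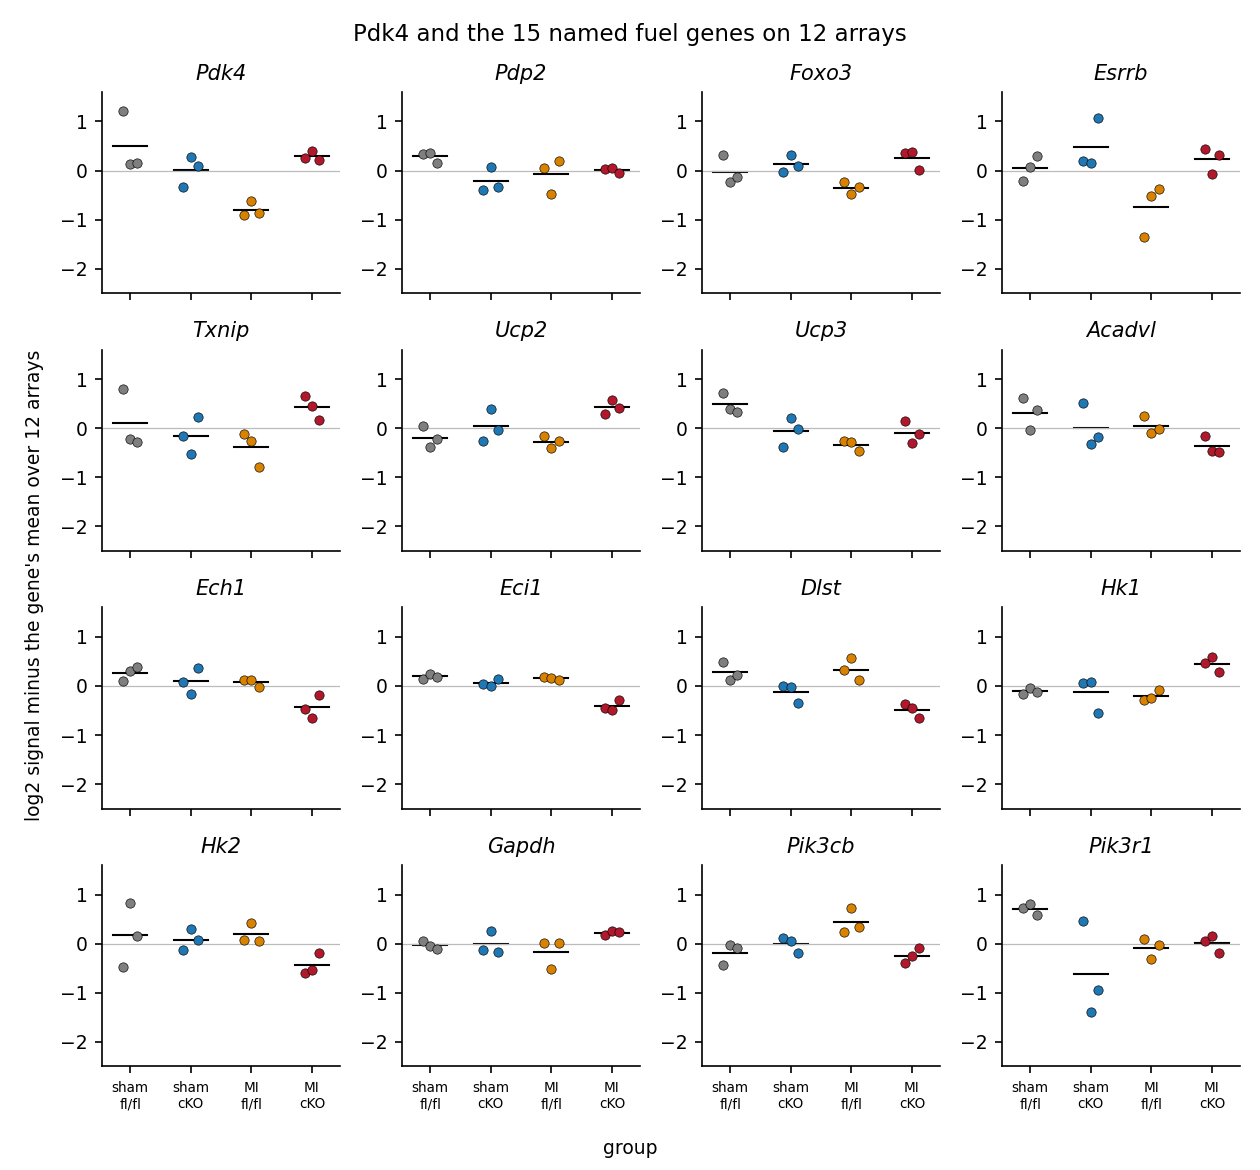
Log2 signal minus the gene's own mean over the 12 arrays, on the vertical axis, for Pdk4 and the 15 named fuel genes, with 1 point per heart in each of the 4 groups on the horizontal axis and a bar at the group mean. The orange MI miR-150 fl/fl points are low for Pdk4, Foxo3 and Esrrb and high for Pik3cb, and the red MI miR-150 cKO points are low for Ech1, Eci1 and Dlst.

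The 5 named genes of cardiac stress followed another order than Pdk4 did. Nppa, which encodes atrial natriuretic peptide, was 3.36, 3.89 and 4.15 in sham miR-150 fl/fl and 4.83 to 5.27 in MI miR-150 fl/fl hearts, and it was 5.02 to 6.55 in sham miR-150 cKO and 6.40 to 7.13 in MI miR-150 cKO hearts. Nppa, Nppb and Ankrd1 were named as higher in sham miR-150 cKO than in sham miR-150 fl/fl hearts. Their low values in sham miR-150 fl/fl hearts were therefore fixed in part by the naming. Nppa, Ankrd1, Myh7 and Acta1 were named as higher in MI miR-150 cKO than in MI miR-150 fl/fl hearts, as Pdk4 was. Nppa and Nppb were also named as higher in MI than in sham miR-150 fl/fl hearts. The correlation with Pdk4 over the 12 arrays was -0.10 for Nppa, 0.17 for Myh7, the fetal myosin heavy chain, -0.28 for Nppb, the B-type natriuretic peptide, 0.01 for Ankrd1 and 0.26 for Acta1. Without the hearts farthest from the Pdk4 median, replicate 1 of each miR-150 fl/fl group, these were 0.35 for Nppa, 0.63 for Myh7, -0.01 for Nppb, 0.47 for Ankrd1 and 0.42 for Acta1, so that the low values for Nppa, Myh7 and Ankrd1 rested on those hearts. All correlations over arrays are Pearson's r, given as a description, and the arrays share their groups.

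Likeness to Pdk4 was measured by r over the 12 arrays for 713 named symbols that were well above background on all of them, with a median r of 0.08. The most alike were Trank1 (0.836), Ly6h, which encodes a GPI-anchored protein (0.816), Usf1, a transcription factor that binds E-boxes (0.811), Cdan1, which encodes codanin-1 (0.806), and Prodh, the mitochondrial enzyme that begins proline breakdown (0.795). All 5 were named as higher in MI miR-150 cKO than in MI miR-150 fl/fl, as Pdk4 was. With the group means removed, r was 0.822 for Trank1, 0.811 for Ly6h, 0.638 for Usf1, 0.727 for Cdan1 and 0.691 for Prodh. The spread of Pdk4 within groups was largest in sham miR-150 fl/fl (SD 0.62), where replicate 1 lay at 7.01. These values were not computed without that heart.

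Trank1 was -0.85, -0.96 and -0.96 in MI miR-150 fl/fl hearts, the 3 lowest values for this gene too, and 0.18 in sham miR-150 fl/fl replicate 1, the highest. The other sham miR-150 fl/fl hearts were at -0.80 and -0.68, the sham miR-150 cKO hearts from -0.54 to -0.27 and the MI miR-150 cKO hearts from -0.65 to -0.06.

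The genes least like Pdk4 were Tnfsf10, which encodes the death ligand TRAIL (-0.912), Gstt3, a glutathione S-transferase (-0.888), and Acsl5, which activates long-chain fatty acids with coenzyme A (-0.885). Tnfsf10 and Gstt3 were named as lower in MI miR-150 cKO than in MI miR-150 fl/fl hearts. Acsl5 was named as higher in MI than in sham miR-150 fl/fl hearts. High values of these genes in MI miR-150 fl/fl hearts were therefore fixed in part by the naming. Tnfsf10 was -2.05, -1.69 and -1.66 in MI miR-150 fl/fl hearts, its 3 highest values, and -3.75 in sham miR-150 fl/fl replicate 1, its lowest. Acsl5 was 1.82, 1.95 and 1.57 in MI miR-150 fl/fl hearts and 1.02 in sham miR-150 fl/fl replicate 1. The sham miR-150 cKO hearts ran from 1.22 to 1.62 and the MI miR-150 cKO hearts from 1.24 to 1.35. With the group means removed, r was -0.800 for Tnfsf10, -0.666 for Gstt3 and -0.595 for Acsl5.

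Leaving out the 2 hearts farthest from the Pdk4 median, sham miR-150 fl/fl replicate 1 and MI miR-150 fl/fl replicate 1, r stayed between 0.739 and 0.870 for the 5 alike genes and between -0.890 and -0.810 for the 3 opposed genes. Among the fuel genes, r over all 12 arrays was 0.762 for Foxo3, 0.778 for Ucp3, 0.687 for Txnip, 0.520 for Ucp2, 0.484 for Esrrb and -0.817 for Pik3cb. Over the 10 arrays it was 0.778, 0.631, 0.617, 0.682, 0.576 and -0.825, respectively. Over the 12 arrays r was 0.016 for Acadvl, -0.193 for Ech1, -0.301 for Eci1 and -0.217 for Dlst, and over the 10 arrays it was -0.415, -0.314, -0.496 and -0.614, respectively. Gapdh, named as a housekeeping gene, had an r of 0.438 over the 12 and 0.624 over the 10 arrays. For Pdp2, Hk1, Hk2 and Pik3r1, r was 0.386, 0.298, -0.399 and 0.145 over the 12 arrays. Over the 10 arrays these were 0.309, 0.448, -0.26 and -0.072, respectively.

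**Figure D4:**
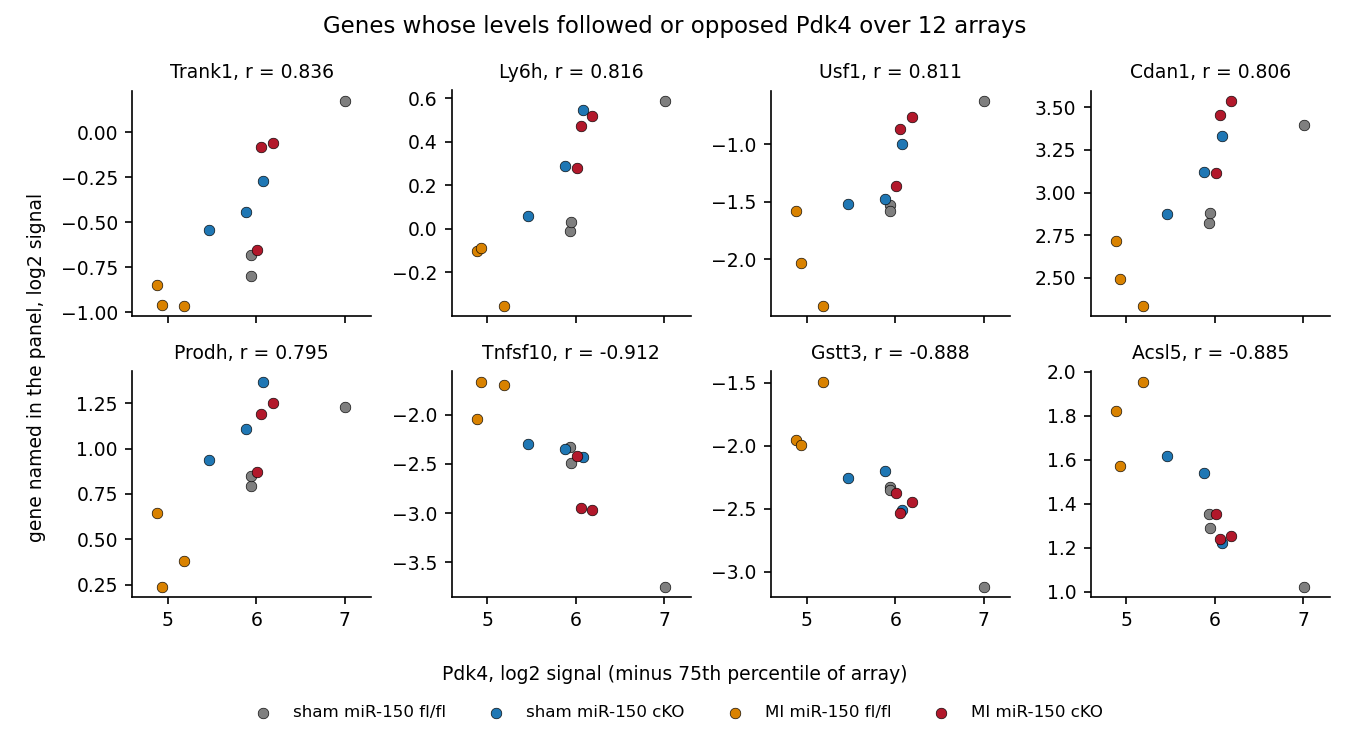
Log2 signal of 8 genes, on the vertical axis of each panel, against the Pdk4 log2 signal on the horizontal axis, with 1 point per heart coloured by group and Pearson's r over 12 arrays in the panel title. The MI miR-150 fl/fl hearts sit at the low Pdk4 end and sham miR-150 fl/fl replicate 1 at the high end of every panel.

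Markers of other cells in the LV differed between the groups as well, but each had a name only through a change in the study's comparisons. The named adipocyte markers, 4 of 16 listed, were Cfd, Plin4, Scd1 and Adipoq, and their mean log2 signal per heart was -0.24 to 0.52 in MI miR-150 fl/fl, where Pdk4 was lowest. It was -1.23 to -0.45 in sham miR-150 fl/fl, -0.89 to -0.01 in sham miR-150 cKO and -1.13 to -0.84 in MI miR-150 cKO hearts. Adipoq, which encodes adiponectin, was -0.51, 1.5 and -0.50 in MI miR-150 fl/fl and -2.25, -3.33 and -2.64 in MI miR-150 cKO hearts, and its r with Pdk4 was -0.759 over 12 arrays. The other 3 differed less between the MI genotypes, cKO minus fl/fl: -0.88 for Cfd, -0.20 for Scd1 and -0.16 for Plin4, beside -2.91 for Adipoq. Their r with Pdk4 was -0.668 for Cfd, -0.626 for Scd1 and 0.256 for Plin4 over the 12 arrays. Without the hearts farthest from the Pdk4 median, r was -0.777 for Adipoq, -0.628 for Cfd, -0.162 for Scd1 and -0.132 for Plin4. The difference of Plin4 between MI and sham in miR-150 fl/fl mice was -0.29, where that of Adipoq was 2.41. Adipoq and Cfd were named as lower in MI miR-150 cKO than in MI miR-150 fl/fl hearts. Adipoq and Scd1 were named as higher in MI than in sham miR-150 fl/fl hearts. Plin4 was named as lower in sham miR-150 cKO than in sham miR-150 fl/fl hearts. These directions were fixed by the naming.

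The named fibroblast markers, 5 of 10 listed, had a mean log2 signal of -0.66 to 0.48 in sham miR-150 fl/fl, 0.87 to 1.56 in sham miR-150 cKO, 1.64 to 1.78 in MI miR-150 fl/fl and 1.70 to 2.80 in MI miR-150 cKO hearts. The MI groups, which overlapped here, did not overlap in Pdk4. All 5 markers were named as higher in MI than in sham miR-150 fl/fl hearts, so that this direction was fixed by the naming. Col1a1, Col1a2 and Postn were also named as higher in sham miR-150 cKO than in sham miR-150 fl/fl hearts. The 5 were the collagens Col1a1, Col1a2 and Col3a1, fibronectin (Fn1) and periostin (Postn). Their differences between MI and sham in miR-150 fl/fl mice were 0.98, 1.37, 2.01, 1.65 and 2.75, respectively. In the same order, their r with Pdk4 was -0.171, -0.458, -0.668, -0.420 and -0.492 over the 12 arrays. Over the 10 arrays without the hearts farthest from the Pdk4 median, r was 0.173, -0.099, -0.292, -0.097 and -0.133, so that the more negative values rested on those hearts. The named leukocyte markers, 4 of 10 listed, lay from 0.00 to 0.84 in sham miR-150 fl/fl, 1.25 to 1.53 in sham miR-150 cKO, 0.92 to 1.42 in MI miR-150 fl/fl and 0.73 to 1.17 in MI miR-150 cKO hearts, and 1 of them, the B cell marker Ms4a1, was not well above background on any sham miR-150 fl/fl array. All 4 leukocyte markers were named as higher in sham miR-150 cKO than in sham miR-150 fl/fl hearts, which fixed that direction. The macrophage and monocyte markers Emr1, Cd14 and Lyz2 had r with Pdk4 of -0.418, -0.126 and -0.511 over the 12 arrays. Over the same 10 arrays as above, r was 0.19, 0.454 and 0.032, respectively. The cardiomyocyte markers Tnnt2 and Atp2a2, with 3 probes for 2 of 10 listed symbols, were well above background on all 12 arrays. Their mean log2 signal was 3.85 to 4.19 in sham miR-150 fl/fl, 3.51 to 4.00 in sham miR-150 cKO, 3.65 to 3.87 in MI miR-150 fl/fl and 3.62 to 3.81 in MI miR-150 cKO hearts. The members moved apart between the MI genotypes: both probes of Tnnt2, which encodes cardiac troponin T, had a difference of -0.55, and Atp2a2, which encodes the calcium pump SERCA2, one of 0.87 that was past the limits, with r to Pdk4 of 0.545. Tnnt2 was named as lower and Atp2a2 as higher in this comparison, so that their opposite directions were fixed by the naming. Endothelial and smooth muscle markers had no named probe and were not analysed here. The part of these cells in the Pdk4 values was not tested.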

How the data were processed

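LV RNA of 12 mice was hybridised to 12 single-colour arrays, 1 per mouse, and the mice are separate animals per the labels. The authors deposited spot intensity from Agilent Feature Extraction 11.0.1.1 (processed signal, background-subtracted, not normalized between arrays) and a table of log2 values whose quartiles are equal across arrays. The normalization behind that table is not given in the sources used here.

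Intensities of 60819 probes were taken to log2, and every array was centred on its own 75th percentile. Of the spots, 370 with outlier flags were treated as missing, 96 probes not in the authors' table and 15 negative controls were left out, and 0 analysed spots were saturated. A probe had to be well above background on 3 or more of the 12 arrays, and the 54225 that were so were fitted with limma 3.58.1 in R 4.3.3 as 4 group means (8 residual degrees of freedom, 10.4 with the prior), and 6594 were left out. P-values were adjusted by the Benjamini-Hochberg method over all probes tested. The fit was tested on simulated data.

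Each of 963 entries (symbol, fold and p) of the study's table was matched to fold and unpaired test p computed from the authors' log2 values within a relative tolerance of 2e-05, and each matched exactly 1 probe. This named 892 probes. Another 15 housekeeping probes were named by accession. The entries also hold the authors' fold changes and p-values, which served only as a key. Genes named in the text are Pdk4, every member of the fuel and marker lists with a named probe, and the 5 symbols most like and 3 least like Pdk4 by r. Pdk4, the lists and the tests were chosen with earlier results of these data known.

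The alternatives tried were the authors' log2 values, quantile normalization, normexp (offset 50) as the background correction, other filters, only the groups compared, the methods' unpaired test, sex, slide, slide and row, or replicate as terms, and leaving out each of 12 arrays. Correlations without the 2 hearts farthest from the Pdk4 median were added after seeing the data. Slides were inferred from scan times and array positions. The number of arrays limits the precision. Python 3.11.15, pandas 2.3.3, scipy 1.17.1 and matplotlib 3.10.9 were used for the rest.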

Additional observations from a re-analysis of the deposited data

How the results depend on the processing

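Every Pdk4 difference kept its sign under the alternatives run. With slide and row as a block, the MI minus sham difference in miR-150 fl/fl was -1.78 and the interaction 1.99. It also gave -0.83 for the sham genotypes and 0.21 for MI minus sham in miR-150 cKO. The other alternatives that kept every array gave -0.68 to -0.49 for the sham genotypes (limma adjusted p from 0.522 to 1.0 over all alternatives and arrays left out), 0.26 to 0.38 for MI minus sham in miR-150 cKO and 0.90 to 1.15 for the MI genotypes. With 1 array left out, the ranges were -0.67 to -0.13 for the sham genotypes, -1.48 to -0.94 for MI minus sham in miR-150 fl/fl, 0.11 to 0.41 in miR-150 cKO, 1.03 to 1.18 for the MI genotypes, 1.22 to 1.75 for the interaction and 0.13 to 0.54 for male minus female. The smallest sham, MI minus sham in miR-150 fl/fl, interaction and sex differences were those that left out replicate 1 of sham miR-150 fl/fl. The limma adjusted p for sex was from 0.541 to 0.851. The correlation of Acsl5 with Pdk4 was -0.595 with group means removed. With quantile normalization, r with Pdk4 was 0.820 for Trank1, 0.715 for Ly6h, 0.705 for Usf1, 0.827 for Cdan1 and 0.733 for Prodh. For the opposed genes it was -0.928 for Tnfsf10, -0.859 for Gstt3 and -0.693 for Acsl5.

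Same-numbered samples did not deviate together (correlations from -0.273 to 0.274 over 18 pairs, 6 of them over 0.1, and 4 of 12 arrays correlated best with their own number). With the replicate block, the Pdk4 differences were -0.49 (limma adjusted p = 0.592) for the sham genotypes, -1.30, 0.28 and 1.09 for the other comparisons and 1.57 for the interaction, and the probes past an adjusted p of 0.05 in MI against sham miR-150 cKO went from 1139 to 0. Of the fuel genes past the limits between the MI groups, Hk2 was no longer past them under 11 of 23 alternatives, Foxo3 and Pik3cb under 4, Hk1 and Txnip under 3, Ucp2 under 1 and Dlst under 0, and Esrrb under 3 of 22, while Ech1 and Eci1 came past them under 3 of 23. In MI against sham miR-150 fl/fl, Esrrb was lost under 5 of 22 and Pik3cb under 3 of 23, Pik3r1 was gained under 7 of 22 and Pdp2 under 1 of 23.

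The background counts moved more over the 11 alternatives that kept every array. Probes past the limits in the sham comparison ran from 104 to 810 higher (345 as reported) and 168 to 1238 lower (1149). In MI against sham they ran from 174 to 3605 higher (478) and 57 to 1699 lower (198) in miR-150 fl/fl, and from 918 to 3019 higher (2495) and 397 to 2527 lower (951) in miR-150 cKO. Between the MI genotypes they ran from 625 to 2136 higher (1873) and 338 to 1012 lower (712). The share of higher among them ran from 22.1% to 78.3% in the sham comparison (23.1% as reported), 62.5% to 76.6% (70.7%), 50.8% to 72.2% (72.4%) and 45.1% to 79.6% (72.5%) in the others. Probes past the adjusted p ran from 0 to 5 (0), 0 to 5 (0), 0 to 2906 (1139) and 0 to 1531 (1), in the same order. The cause was not tested. Signal over background limits Esrrb and Pik3r1, well above background on 9 and 7 of 12 arrays, and not Pdk4.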
